A study of Mus musculus with 12 samples.

Results

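The interferon regulatory factors (IRFs) are transcription factors that share a DNA-binding domain and recognise repeats of the letters GAAA in the control regions of interferon and immune genes. Members were taken as every non-control array probe whose accession maps to Irf1, Irf2, Irf3, Irf4, Irf5, Irf7, Irf8 or Irf9, which gave 11 of 41174 probes and 8 of the 14719 genes tested. Irf1, Irf8 and Irf9 each had 2 probes and the other 5 genes 1 each. The 11 probes were well above background on 12 of 12 arrays, so every member passed the filter on dim probes and none had to be given as a bound.

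The cells were mouse helper T cells of strain C57BL/6, from animals 7 weeks old. They were activated with antibodies to CD3 and CD28 for 65 hours and kept in IL-2 for 48 hours more. They were electroporated with small RNAs on days 1 and 4, and RNA was taken on day 5, 24 hours after the last transfection. The 4 groups of 3 arrays each were: Dgcr8-deficient cells with a control miRNA, Dgcr8-deficient cells with miR-29b, wild-type cells with control inhibitors, and wild-type cells with miR-29 inhibitors. Dgcr8 is the RNA-binding partner of Drosha in making microRNAs, so cells that lack it are short of most of their own microRNAs. Neither the Cre driver nor the way helper T cells were isolated is given in the sources used here. Each mouse (numbered 2, 3 and 4 within each genotype) gave both arrays of its genotype, and equal numbers in different genotypes are different animals. Since Dgcr8-deficient controls received a miRNA and wild-type controls received inhibitors, the effects of genotype and of the control molecule cannot be told apart.

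In a T cell these factors sit at several points of the interferon pathway. Irf3 and Irf7 are held inactive until kinases downstream of nucleic acid sensors phosphorylate them, and then switch on type I interferon genes. Irf9 is the DNA-binding part of the complex ISGF3, which carries the signal of the type I interferon receptor, while Irf1 is itself induced by interferon gamma and is opposed by Irf2 at many sites. Irf4 is induced by the T cell receptor and works with Batf and Jun proteins in effector T cells, Irf8 acts mainly in myeloid and B cells with the Ets factors Spi1 and Spib, and Irf5 is best known downstream of Toll-like receptors.

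The transfected microRNA belongs to a family whose mature members share 1 seed, the bases at positions 2 to 8 that pair with target messages. They are shown because the first comparison adds miR-29b and the second blocks the family. RefSeq gives them as follows (GRCm38.p6), with the seed in capitals.
mmu-miR-29a-3p: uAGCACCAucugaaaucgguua
mmu-miR-29b-3p: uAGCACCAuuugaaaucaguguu
mmu-miR-29c-3p: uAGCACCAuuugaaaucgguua
The genes lie on chromosome 1 (miR-29b at positions 195037091 to 195037113 and miR-29c at 195037600 to 195037621, plus strand) and on chromosome 6 (miR-29a at 31062673 to 31062694 and a second copy of miR-29b at 31063025 to 31063047, minus strand). The sequences of the transfected oligonucleotides themselves are not given in the sources used here.

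RefSeq promoter windows, 250 bases before to 50 after a transcript's start, matched all 8 Irf genes with 11 windows. They were searched on both strands for the core of the interferon-stimulated response element (GAAA, any 2 bases, GAAA), the STAT element TTCNNNGAA and the composite Ets-IRF element (GGAA, any 2 bases, GAAA). These patterns, of which the first and the last can overlap, occur in 3.44%, 8.3% and 2.72% of 32851 windows of 300 bases. The windows of 3 Irf genes held a match. The stretches around the matches are shown because Irf1, Irf2 and Irf8 are the members with such letters near a start, and capitals mark the matched letters.
Irf1 (GRCm38.p6, chr11:53769904-53769952, plus strand): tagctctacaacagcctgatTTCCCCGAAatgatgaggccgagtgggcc
Irf2 (GRCm38.p6, chr8:46739495-46739549, plus strand): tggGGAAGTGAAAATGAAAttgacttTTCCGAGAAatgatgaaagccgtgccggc
Irf8 (GRCm38.p6, chr8:120736167-120736233, plus strand): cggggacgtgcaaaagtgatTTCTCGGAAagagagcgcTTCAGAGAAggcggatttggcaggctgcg
The Irf1 stretch holds 1 STAT element, TTCCCCGAA, at -90 to -82, counted from the start of the transcript. The Irf8 stretch holds 2, TTCTCGGAA at -171 to -163 and TTCAGAGAA at -153 to -145. In the Irf2 stretch the composite element GGAAGTGAAA (-247 to -238) overlaps the response element GAAAATGAAA (-241 to -232), and the STAT element TTCCGAGAA follows at -224 to -216. A match is a description of letters and not evidence of binding.

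The 12 arrays had between 27301 and 31416 probes well above background and 0 saturated spots. Outlier marks of the scanner software fell on 1458 spots of 1 array, Dgcr8-deficient mouse 3 with miR-29b, and on 68 to 193 spots of each other array, with none among the Irf probes. The level of Dgcr8 itself ran from -1.19 to -0.10 over the Dgcr8-deficient arrays and from -0.12 to 1.04 over the wild-type arrays. Its difference between controls, -1.04 ± 0.38 (SE), missed the threshold (limma, adjusted p = 0.0779), and a block for scan day brought it past (adjusted p = 0.00176). Whether its probe lies inside the deleted stretch is not given in the sources used here. All 8 helper T cell markers were well above background on all arrays of every group. A level here is the log2 of a probe's signal divided by its array's 75th percentile, and levels are compared only within a gene. Differences are log2 values ± SE from limma with 3 arrays a group. P-values carry the Benjamini-Hochberg adjustment across the 14719 genes tested, and the threshold was 0.05.

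The clearest contrast within the family was between genotypes. Among controls, 5 of the 8 Irf genes were higher in Dgcr8-deficient than in wild-type cells (Irf1, Irf4, Irf7, Irf8 and Irf9), 1 was lower (Irf5), and Irf2 and Irf3 did not pass. Over all genes the same test called 21.8%, 9.5% higher and 12.3% lower. The median difference was 1.56 over the Irf genes and -0.07 over all genes tested. Groups did not overlap for 7 of the 8 genes, 5 higher and 2 lower, against 15.7% higher and 21.4% lower over the 14202 genes with a value on every array. All 8 Irf genes had an unadjusted p under 0.05, as did 4799 genes in all. With the mouse as a block 6 Irf genes passed (20.1% of all genes), and with scan day as a block 8 did (39.6% of all genes).

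**Figure D1:**
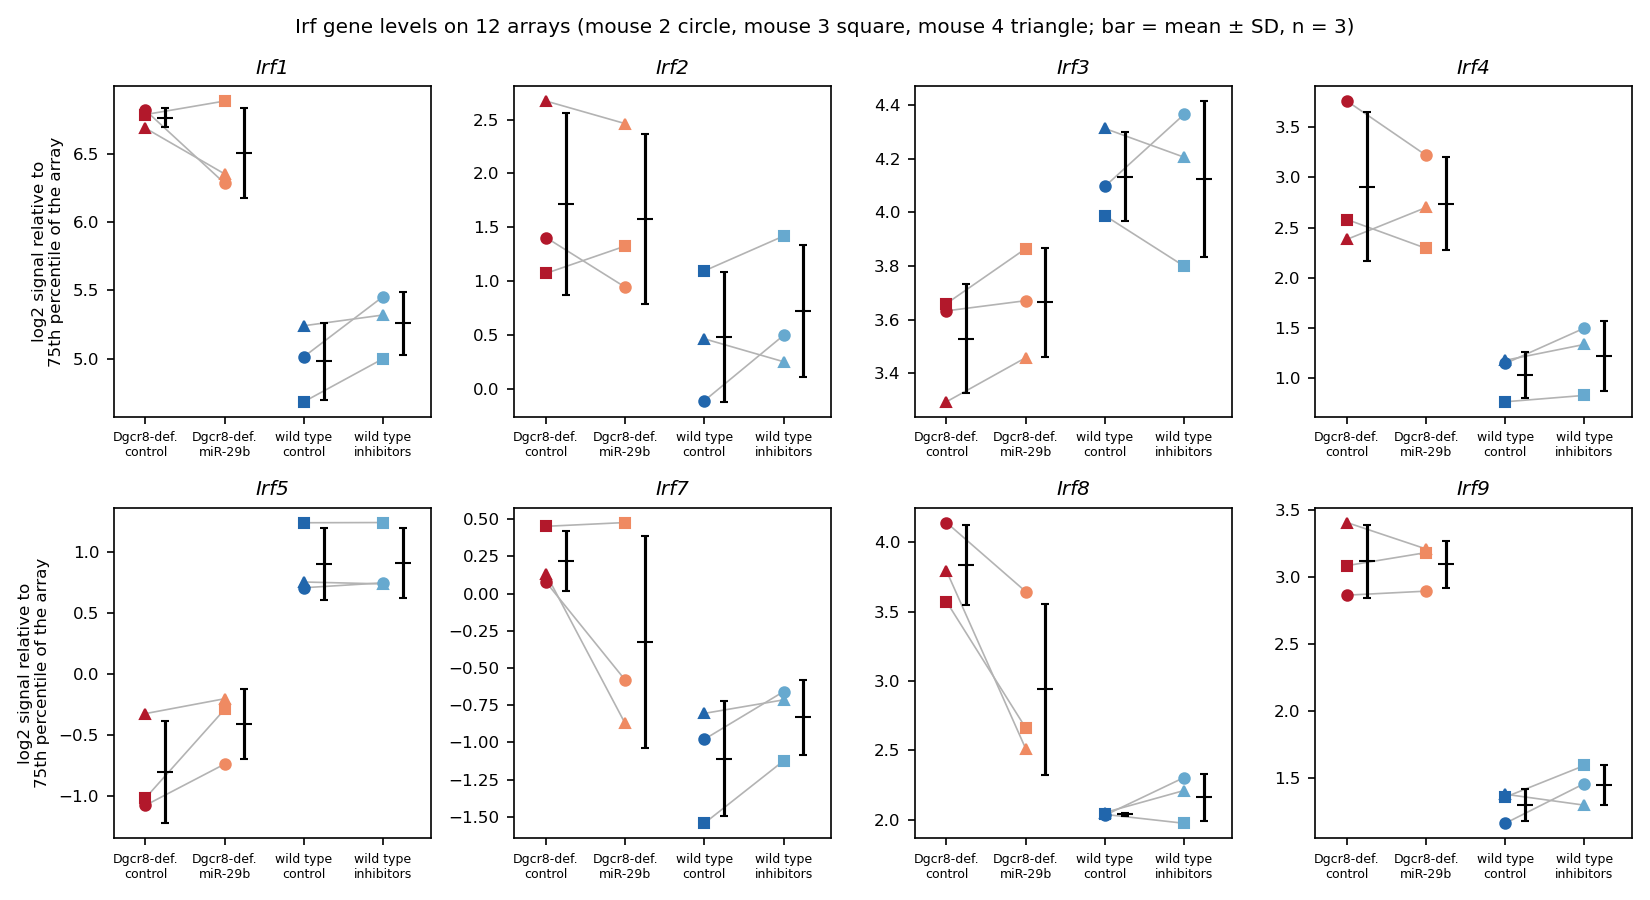
Level of each Irf gene on each of 12 arrays, as log2 signal over the array's 75th percentile (y axis, scaled separately for each gene), in the 4 groups (x axis). Grey lines join both arrays of a mouse, marker shapes give the mouse number within its genotype, and black bars are the mean ± SD of 3 arrays. The groups of Dgcr8-deficient cells sit above both wild-type groups for Irf1, Irf4, Irf8 and Irf9 and below them for Irf5.

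Irf9, the DNA-binding subunit of ISGF3 (chromosome 14, positions 55603985 to 55610030), had the smallest adjusted p of the family in this comparison. In Dgcr8-deficient cells with the control miRNA its level was 2.86, 3.08 and 3.4 in mice 2, 3 and 4, and with miR-29b 2.89, 3.18 and 3.21. In wild-type cells it was 1.16, 1.36 and 1.38 with control inhibitors and 1.46, 1.60 and 1.30 with miR-29 inhibitors. The 6 Dgcr8-deficient arrays were all above the 6 wild-type arrays, and within each genotype both groups overlapped. The difference between controls was 1.82 ± 0.18, or 3.52-fold (limma, adjusted p = 9.14e-05). The dimmer Irf9 probe gave 2.10 ± 0.24 (adjusted p = 0.000311).

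Irf1, an activator induced by interferon gamma (chromosome 11, positions 53770014 to 53778374), followed the same order. Dgcr8-deficient control arrays read 6.82, 6.79 and 6.69, and those with miR-29b 6.28, 6.89 and 6.35. Wild-type arrays read 5.01, 4.68 and 5.24 with control inhibitors and 5.45, 5.0 and 5.32 with miR-29 inhibitors. Every Dgcr8-deficient array was again above every wild-type array. The difference between controls was 1.79 ± 0.22 (log2), or 3.45-fold (limma, adjusted p = 0.000275), and 2.20 ± 0.43 on the dimmer probe (adjusted p = 0.00561).

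Irf4, the factor induced by T cell receptor signalling (chromosome 13, positions 30749233 to 30766981), was higher by 1.88 ± 0.37, or 3.69-fold (limma, adjusted p = 0.00453). Its levels in Dgcr8-deficient cells were 3.76, 2.58 and 2.38 with the control miRNA and 3.22, 2.29 and 2.70 with miR-29b. Wild-type levels were 1.14, 0.76 and 1.18 with control inhibitors and 1.50, 0.83 and 1.33 with miR-29 inhibitors. Mouse 2 of the Dgcr8-deficient genotype was the highest in both of its groups. Within the slides that carried both genotypes the difference between controls was 2.62 and 1.62.

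Irf8, the partner of Spi1 and Spib in myeloid and B cells (chromosome 8, positions 120736358 to 120756694), had levels of 4.14, 3.57 and 3.79 in Dgcr8-deficient controls. With miR-29b they were 3.65, 2.66 and 2.51, all above the wild-type controls, and the array of mouse 2 lay above the lowest Dgcr8-deficient control. Wild-type levels were 2.03, 2.04 and 2.05 with control inhibitors and 2.30, 1.97 and 2.21 with miR-29 inhibitors. The group means were 3.84 ± 0.29 in Dgcr8-deficient controls, 2.94 ± 0.62 with miR-29b, and 2.04 ± 0.01 in wild-type controls (SD, n = 3). The difference between controls was 1.80 ± 0.28, or 3.47-fold (limma, adjusted p = 0.00121), and 1.94 ± 0.45 on the dimmer probe (adjusted p = 0.0139).

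Irf7, the inducer of type I interferon genes (chromosome 7, positions 141263183 to 141266499), was higher in Dgcr8-deficient controls by 1.33 ± 0.33, or 2.51-fold (limma, adjusted p = 0.0167). Control levels were 0.08, 0.45 and 0.13 in Dgcr8-deficient cells and -0.98, -1.54 and -0.80 in the wild type. The call was lost without either of 2 arrays. Without the Dgcr8-deficient control of mouse 3 the difference was 1.22 (adjusted p = 0.0557), and without the wild-type control of mouse 3 it was 1.11 (adjusted p = 0.063).

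Irf5, which acts downstream of Toll-like receptors (chromosome 6, positions 29526130 to 29541869), was the only member lower in Dgcr8-deficient controls past the threshold, by -1.70 ± 0.26, or 3.26-fold lower (limma, adjusted p = 0.0012). Its levels were -1.08, -1.02 and -0.33 in Dgcr8-deficient controls and -0.74, -0.29 and -0.20 with miR-29b. Wild-type levels were 0.70, 1.24 and 0.75 with control inhibitors and 0.74, 1.24 and 0.74 with miR-29 inhibitors. No Dgcr8-deficient array reached the lowest wild-type array. Irf5 thus ran against Irf1, Irf4, Irf7, Irf8 and Irf9.

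Irf3, the constitutive sensor-activated factor (chromosome 7, positions 44997648 to 45002848), was also lower, by -0.60 ± 0.20, but missed the threshold (limma, adjusted p = 0.0554). Its control levels were 3.63, 3.66 and 3.29 in Dgcr8-deficient cells and 4.10, 3.99 and 4.31 in the wild type, which did not overlap. Of 24 alternative settings 7 called it, among them the deposited log2 values (-0.57, adjusted p = 0.01).

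Irf2, a repressor at sites that Irf1 activates (chromosome 8, positions 46739745 to 46847458), had a difference of 1.23 ± 0.53 (limma, adjusted p = 0.133). Its control levels were 1.40, 1.07 and 2.67 in Dgcr8-deficient cells and -0.11, 1.09 and 0.46 in the wild type. With the treated arrays, at 0.94, 1.32 and 2.46 with miR-29b and 0.50, 1.42 and 0.25 with inhibitors, the highest mouse of each genotype was Dgcr8-deficient mouse 4 and wild-type mouse 3, which shared slide 3, the slide scanned on the second day. With slide as a block Irf2 passed at 1.33 (adjusted p = 0.00276), and with scan day as a block at 1.23 (adjusted p = 0.00104). On slides 1 and 3, which carried both genotypes, the difference was 1.52 and 1.58.

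Other results on those slides had the direction of the full comparison. The difference between controls on slides 1 and 3 was 1.70 and 2.05 for Irf9, 1.80 and 2.00 for Irf1, 2.11 and 1.76 for Irf8, and 1.06 and 1.68 for Irf7. It was -1.78 and -1.56 for Irf5 and -0.46 and -0.69 for Irf3. Without both arrays of Dgcr8-deficient mouse 3, the mouse with the outlier spots, 6 Irf genes passed between controls (19.9% of all genes).

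**Figure D2:**
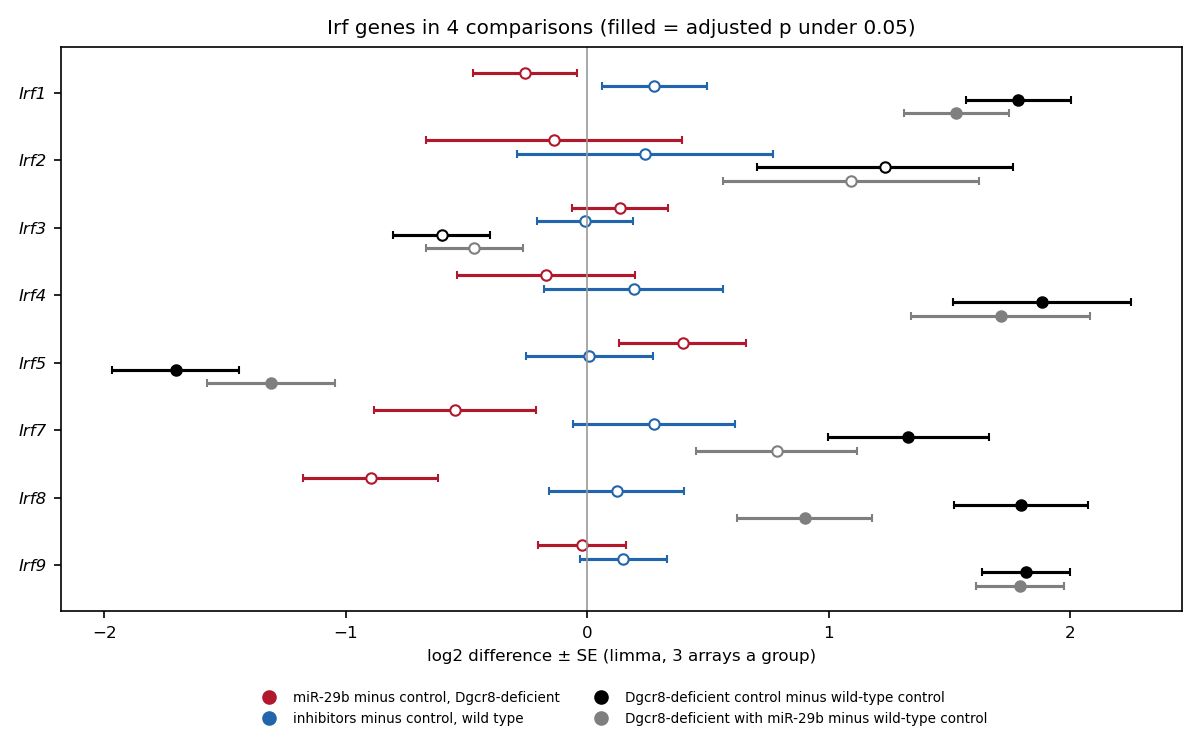
Log2 difference ± SE (x axis, limma, 3 arrays a group) of each Irf gene (y axis) in 4 comparisons, given by colour; filled points have an adjusted p under 0.05. In the comparison of controls, 5 genes lie to the right and Irf5 to the left with filled points, while all points for miR-29b in Dgcr8-deficient cells and for inhibitors in wild-type cells are open.

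The second question was what miR-29b changed in Dgcr8-deficient cells. None of the 8 Irf genes passed without a block (limma, 0 of 8), against 2.28% of all genes, and 1 Irf gene and 2055 of all genes had an unadjusted p under 0.05. The groups overlapped for all 8 genes, where 15.8% of genes did not overlap. The median difference was -0.15 over the Irf genes and 0.07 over all genes.

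Irf8 was the member with the largest difference, -0.90 ± 0.28, or 1.86-fold lower with miR-29b, and it missed the threshold when no block was used (limma, adjusted p = 0.149). Within mice 2, 3 and 4 the difference was -0.50, -0.91 and -1.28, so it was lower in 3 of 3. The dimmer probe gave -0.57, -0.89 and -1.36 in the same mice. With the mouse as a block Irf8 was called lower (limma, adjusted p = 0.0144), a fit that called 20.7% of all genes, 10.3% lower, and 1 of 8 Irf genes. With no block, the dimmer probe missed the threshold (-0.94 ± 0.45, adjusted p = 0.491), and on the 6 arrays of the comparison alone the brighter probe had an adjusted p of 0.512.

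Among markers of other cells, Mpeg1, a pore-forming protein of macrophages, moved with Irf8 and carried most of the summed signal of the myeloid and dendritic list in Dgcr8-deficient controls. The sum was 3.86 to 5.07 times the array's 75th percentile in Dgcr8-deficient controls, 0.966 to 2.46 with miR-29b, 0.701 to 1.31 in wild-type controls and 0.852 to 1.69 with inhibitors. Without Mpeg1, a sum added after the data were seen, it was 0.302 to 0.598, 0.214 to 0.626, 0.649 to 1.25 and 0.816 to 1.64 in the same order, with every Dgcr8-deficient array below every wild-type array. Fcgr3 had mean levels of -2.67 and -0.46 in Dgcr8-deficient and wild-type controls, and Csf1r of -4.25 and -4.12. Of the 7 myeloid markers tested, only Mpeg1 passed between miR-29b and control (difference -1.87 ± 0.34, limma, adjusted p = 0.0206), where 2.28% of all genes passed. Its mean level was 1.93 in Dgcr8-deficient controls, 0.06 with miR-29b and -4.21 in wild-type controls. Lyz2 and Siglech were not well above background on any Dgcr8-deficient control array. The part of such cells in the Irf8 result was not tested. In RNA from a whole culture, fewer cells of a type and less RNA per cell cannot be told apart.

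The other members differed less with miR-29b. Irf7 was at -0.58, 0.48 and -0.87 on the miR-29b arrays of mice 2, 3 and 4, a change within mice of -0.66, 0.03 and -1.01. Mouse 3 did not share the direction of the other mice, and the difference of -0.55 ± 0.33 did not pass (limma, adjusted p = 0.549, with the mouse as a block 0.099). Irf5 had the opposite sign, with changes of 0.34, 0.73 and 0.12 within mice, or 0.40 ± 0.26 (adjusted p = 0.6, blocked 0.0723). Irf3 also had 3 positive changes, of 0.04, 0.20 and 0.16, with an adjusted p of 0.885. For Irf1 the changes were -0.53, 0.10 and -0.34, for Irf2 -0.46, 0.25 and -0.21, for Irf4 -0.54, -0.29 and 0.32, and for Irf9 0.03, 0.10 and -0.20. Each of these 4 genes had both signs among the mice. The 95% intervals of their differences ran from -0.74 to 0.22 for Irf1, from -1.31 to 1.03 for Irf2, from -0.99 to 0.65 for Irf4 and from -0.43 to 0.38 for Irf9, so the interval for Irf2 spans a fall as large as its 1.23 between genotypes.

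**Figure D3:**
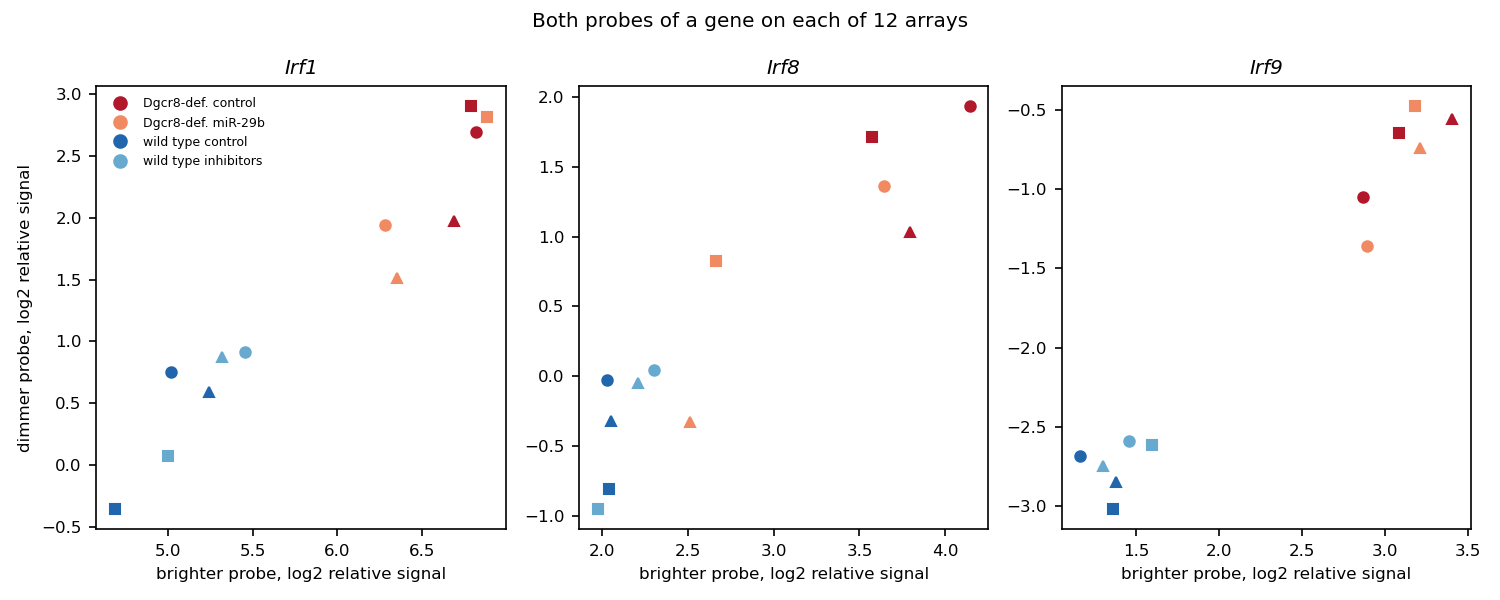
Level of the brighter (x axis) against the dimmer probe (y axis) of Irf1, Irf8 and Irf9, both as log2 signal over the array's 75th percentile; each point is 1 of 12 arrays, coloured by group, with marker shapes for mice 2 (circle), 3 (square) and 4 (triangle). Arrays of both genotypes fall apart on both axes for Irf1 and Irf9, while for Irf8 the miR-29b arrays spread from 2.51 to 3.65 on the brighter probe and from -0.33 to 1.36 on the dimmer one.

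Irf1, Irf8 and Irf9 could be read on both of their probes. The gap between the brighter and the dimmer probe had an SD over 12 arrays of 0.36 for Irf1, 0.38 for Irf8 and 0.22 for Irf9 on the log2 scale. On the dimmer Irf8 probe the miR-29b array of mouse 4, at -0.33, lay among the wild-type controls, which were at -0.02, -0.81 and -0.32.

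Blocking miR-29 in wild-type cells left no Irf gene past the threshold (limma, 0 of 8), where 0% of all genes passed. No Irf gene and 63 genes in all had an unadjusted p under 0.05. Groups overlapped for all 8 Irf genes, and 2.89% of genes did not overlap. The largest Irf difference was that of Irf1, 0.28 ± 0.22, with changes of 0.44, 0.32 and 0.08 within mice. Irf7 was at 0.28 ± 0.33 with changes of 0.32, 0.42 and 0.09, and Irf4 at 0.19 ± 0.37 with 0.35, 0.06 and 0.16. These 3 genes were higher with inhibitors in 3 of 3 mice without passing. Irf8 had changes of 0.27, -0.06 and 0.16, and the 95% interval of its difference ran from -0.50 to 0.74. Irf2, with a mean difference of 0.24, changed by 0.61, 0.32 and -0.21, Irf9 by 0.30, 0.24 and -0.08, and Irf3 by 0.27, -0.19 and -0.11, each with both signs among the mice. Irf5 changed by 0.04, 0.00 and -0.02.

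The difference between the effect of miR-29b and that of the inhibitors was itself tested, and 0 of 8 Irf genes passed (limma, 0.17% of all genes did). It was -1.02 ± 0.39 for Irf8 (adjusted p = 0.535), the 1 Irf gene with an unadjusted p under 0.05, as had 1061 genes in all. With the mouse as a block Irf8 again missed the threshold (limma, adjusted p = 0.0548). That fit called 877 of 14719 genes and 0 Irf genes.

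With miR-29b added back, most members still stood apart from the wild-type controls. In that comparison 4 Irf genes were higher (Irf1, Irf4, Irf8 and Irf9), Irf5 was lower, and 3 did not pass, against 24.8% of all genes called, 11% higher and 13.8% lower. The median was 1.0 over the Irf genes and 0.02 over all genes. This comparison shares its wild-type arrays with that of the controls, so both rest in part on the same values. Irf9 differed by 1.79 ± 0.18 (3.46-fold) here and by 1.82 between controls, Irf1 by 1.53 ± 0.22 against 1.79, Irf4 by 1.71 ± 0.37 against 1.88 and Irf5 by -1.31 ± 0.26 against -1.70. Their adjusted p-values were 9.03e-05, 0.00064, 0.00685 and 0.00474 (limma).

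Irf8 was at 0.90 ± 0.28 against 1.80 between controls, and its call was not firm (adjusted p = 0.038, with the mouse as a block 0.058). On slide 1 the difference was 1.61 and on slide 3 it was 0.47. Without the miR-29b array of mouse 2 it was 0.55 (adjusted p = 0.0823), and the dimmer probe gave 1.0 (adjusted p = 0.162). Irf7 differed by 0.78 ± 0.33 (adjusted p = 0.12), Irf2 by 1.09 ± 0.53 (adjusted p = 0.171) and Irf3 by -0.47 ± 0.20 (adjusted p = 0.122). With the mouse as a block 4 Irf genes passed (23% of all genes), and with scan day as a block 8 did (42.8% of all genes).

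By group mean, Irf1, Irf2, Irf4, Irf7, Irf8 and Irf9 had 1 order: Dgcr8-deficient control, Dgcr8-deficient with miR-29b, wild type with inhibitors, wild-type control. Neighbours within a genotype passed no test without a block, and with the mouse as a block Irf8 alone did, in Dgcr8-deficient cells. The step in the middle, from miR-29b to inhibitor arrays, was free of overlap for Irf1, Irf4, Irf8 and Irf9, while those ranges overlapped for Irf2 and Irf7. For Irf5 the wild-type groups were above both Dgcr8-deficient groups with no overlap, and for Irf3 the inhibitor and miR-29b ranges overlapped. The share of all genes with this order or these gaps was not counted, so neither is read as particular to the family.

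The genes through which IRFs are switched on and act were taken from lists, with the share called among all genes (21.8% between controls) as the background. Upstream of Irf9 and Irf1, 3 of 8 interferon receptor, JAK and STAT genes were higher in Dgcr8-deficient controls and 0 lower. Stat2, a part of ISGF3, was higher by 1.81 ± 0.36 (limma, adjusted p = 0.00462). The receptor chains Ifnar1 and Ifngr2 were higher by 1.19 and 1.50. Jak1, Jak2, Tyk2, Ifnar2 and Ifngr1 did not pass.

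Ifnar1 was also the only gene of that list past the threshold with miR-29b, where 2.28% of all genes passed without a block. Its mean level was 3.04 in Dgcr8-deficient controls, 2.21 with miR-29b, 1.85 in wild-type controls and 1.81 with inhibitors. The fall with miR-29b was -0.82 ± 0.16 (limma, adjusted p = 0.0257).

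Upstream of Irf3, Irf5 and Irf7, 15 sensors, adaptors and kinases were tested, with 2 higher and 2 lower between controls and a median of -0.02. The RNA sensor Ifih1 was higher by 1.77 ± 0.21 (limma, adjusted p = 0.000231) and the endosomal receptor Tlr7 by 1.11 ± 0.18 (adjusted p = 0.00155). The adaptor Mavs and the DNA sensor Cgas were lower by -0.59 and -0.63 (adjusted p = 0.0361 and 0.0369), and Cgas did not keep its call when mouse was blocked (adjusted p = 0.152). None of the 15 passed with miR-29b without a block, where the smallest p was that of Ifih1 (-0.75 ± 0.21, adjusted p = 0.102). Blocking by mouse, 2 were lower, Ifih1 (limma, adjusted p = 0.0148) and the kinase gene Chuk (-0.41, adjusted p = 0.0471), and the adaptor Ticam1 was higher (0.58, adjusted p = 0.031), where 20.7% of all genes were called.

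Among 10 genes for proteins that bind DNA together with IRFs, 5 were higher and 0 lower between controls, with a median of 1.05. Besides Stat2 these were Spib (4.00 ± 0.45, adjusted p = 0.000198), the Irf8 and Irf4 partner of B cells and plasmacytoid dendritic cells, Jun (2.74 ± 0.19, adjusted p = 9.76e-06), Batf2 (3.19 ± 0.41, adjusted p = 0.00041) and Batf3 (2.61 ± 0.56, adjusted p = 0.00717, all limma). Of the 5 that did not pass, Batf (-0.54, limma, adjusted p = 0.0555), Ets1 (-0.52) and Spi1 (-0.53) were lower in Dgcr8-deficient controls. Junb (0.18) and Jund (0.28) were higher. Spi1 was well above background on 1 of 3 Dgcr8-deficient and 2 of 3 wild-type control arrays. Batf2, which pairs with Irf1 in macrophages, was the only partner that passed with miR-29b without a block, where 2.28% of all genes passed. It fell by -2.11 ± 0.41 (adjusted p = 0.0291), from a mean level of -0.86 to -2.98, with wild-type controls at -4.06. Under the mouse block Jun also passed as lower (-0.73, limma, adjusted p = 0.0102) and Jund as higher (0.40, adjusted p = 0.0348). That fit called 20.7% of all genes.

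B cell markers moved with genotype beside Irf4, Irf8 and Spib. Of 9 tested, 6 were higher in Dgcr8-deficient controls and 0 lower, among them Cd79b by 3.85, Ms4a1 by 5.88 and Cd22 by 3.76. Fcer2a (2.26, limma, adjusted p = 0.102) did not pass, and Pax5 differed by 0.02. Cr2, which did not pass, had mean levels of -4.26 in Dgcr8-deficient and -4.07 in wild-type controls. The list's summed signal was 4.42 to 9.92 times the 75th percentile in Dgcr8-deficient controls, 5.17 to 10.9 with miR-29b, 0.381 to 0.554 in wild-type controls and 0.492 to 0.635 with inhibitors. Cd79b was the largest gene of that sum. Without it, a sum added after the data were seen, the values were 1.74 to 4.32, 1.97 to 5.02, 0.164 to 0.238 and 0.246 to 0.334 in the same order. Ebf1 was not well above background on any wild-type array. None of the 9 passed between miR-29b and control. The part of B cells in the Irf4, Irf8 and Spib results was not tested.

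Other cell markers were mixed. Of the 7 myeloid and dendritic markers, 2 were higher between controls (Mpeg1 by 6.14 and Itgax, which was at least 6.18-fold higher) and Fcgr3 was lower by -2.21, with Lyz2, Itgax and Siglech not well above background on any wild-type control array. The NK cell list summed to 0.394 to 0.741 in Dgcr8-deficient controls and 1.30 to 2.96 in wild-type controls, with 1 of 5 tested higher (Klrk1) and 1 lower (Klrd1). Klrd1 was the largest gene of that sum. Without it, a sum added after the data were seen, the direction was reversed, at 0.195 to 0.280 and 0.0524 to 0.125 in the same order. The single CD8 T cell marker tested summed to 0.139 to 0.348 and 0.160 to 0.193 and did not pass. The helper T cell list summed to 245.9 to 285.5 in Dgcr8-deficient controls, below every array of the other groups. Its sum was 337.2 to 388 with miR-29b, 291.9 to 356.8 in wild-type controls and 338.3 to 342.9 with inhibitors. Of the helper T cell markers Cd28 was higher by 1.26 and Trat1 and Lck lower by -3.94 and -0.65, with 5 not past the threshold. Blocking by mouse ended the call of Lck (limma, adjusted p = 0.0524). With that block 3 helper T cell markers were higher with miR-29b: Trat1 (1.31), Lck (0.54) and Cd3d (0.44). The same fit called 20.7% of all genes, with 1540 of 14719 higher.

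Among 7 corepressors and inhibitors of IRFs, 4 were higher between controls and 0 lower. Usp18, which restrains the type I interferon receptor, was higher by 6.97 ± 0.38 (limma, adjusted p = 2.94e-06). Trim21, a ubiquitin ligase that acts on several IRFs, was higher by 1.45 ± 0.21, and Irf2bp1 and Irf2bpl, of the family of Irf2-binding corepressors, by 0.78 and 0.84. None passed with miR-29b without a block, and under the mouse block Trim21 was lower (-0.42, limma, adjusted p = 0.0148). Over all genes, the blocked fit called 10.3% lower.

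**Figure D4:**
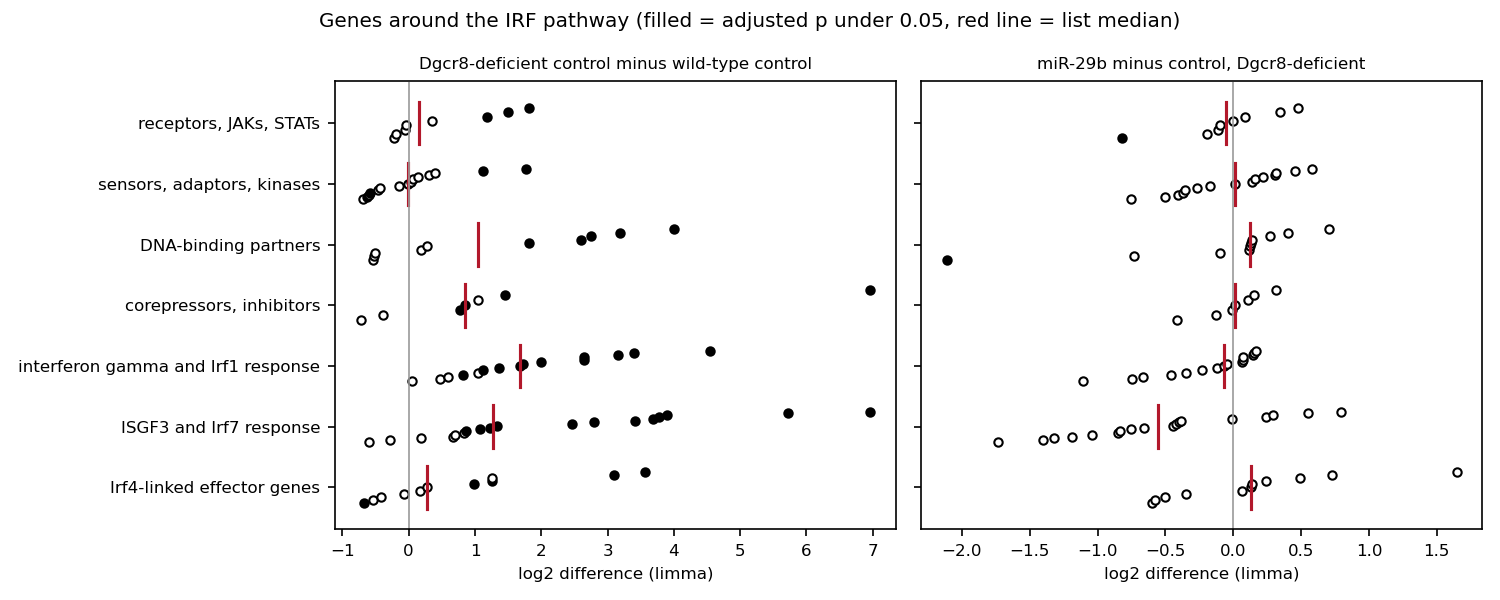
Log2 differences (x axis, limma) of the tested genes of 7 lists around the IRF pathway (y axis), between controls of both genotypes (left) and between miR-29b and control in Dgcr8-deficient cells (right). Each point is 1 gene, filled where the adjusted p is under 0.05, and red lines are list medians, such as 1.68 for interferon gamma and Irf1 response genes on the left.

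Genes that carry the response were higher between controls in most cases. Of 15 interferon gamma and Irf1 response genes 11 were higher and 0 lower, with a median of 1.68. The GTPases Gbp2, Gbp3, Irgm1 and Gbp4, which act against intracellular microbes, were higher by 4.54, 3.15, 2.65 and 2.65 (limma, adjusted p = 1.29e-06 to 2.44e-05). Of 18 ISGF3 and Irf7 response genes, which again include Usp18, 12 were higher and 0 lower, with a median of 1.28. Oas2, a sensor of double-stranded RNA, was higher by 2.47 ± 0.21 and the mitochondrial kinase Cmpk2 by 2.80 ± 0.32. Oasl2 was not well above background on any wild-type control array and was at least 52.8-fold higher in Dgcr8-deficient controls. Such a bound takes, on each array of the dim group, the higher of the gene's own signal and the lowest signal well above background. For Oasl2 its own signal was the higher on all 3 arrays, so the bound equals the ratio of the measured means.

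With miR-29b none of the 18 ISGF3 and Irf7 response genes passed without a block (limma, 0 of 18), and their median was -0.55 against 0.07 over all genes. Of the 18 differences 4 were positive. The smallest p-values were those of Oas1a (-1.73 ± 0.46, adjusted p = 0.0888) and Ifit2 (-1.04 ± 0.28, adjusted p = 0.0985). With the mouse as a block 7 were lower and 2 higher, where 20.7% of all genes were called and 10.3% were lower. Of the 15 interferon gamma and Irf1 response genes 0 passed without a block and 4 were lower with it. The smallest p was that of Irgm1 (-0.75 ± 0.20, adjusted p = 0.0913).

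Of 11 effector T cell genes linked to Irf4, 4 were higher between controls and 1 lower, with a median of 0.28. The transcription factor Maf was higher by 3.57 ± 0.26 (limma, adjusted p = 1.41e-05), the cytokine gene Il4 by 0.98 and Prdm1, the gene of Blimp-1, by 1.26. Il21 was not well above background on any wild-type control array and was at least 7.55-fold higher. The costimulator Icos was lower by -0.67 ± 0.18 (adjusted p = 0.0232). Under the mouse block Icos (limma, adjusted p = 0.059) and Il4 (adjusted p = 0.114) lost their calls, which left 3 higher and 0 lower. None passed with miR-29b without a block or with inhibitors in wild-type cells, and under the mouse block Il21 was higher with miR-29b (1.65, limma, adjusted p = 0.0494). For miR-29b the blocked fit called 20.7% of all genes.

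The profile over 12 arrays most like that of Irf9, the member whose group means varied most (SD 1.0), was that of H2-T22, a nonclassical class I gene, with a root-mean-square difference of 0.12 on the log2 scale after centring. Stau1 and Gpr171 followed at 0.17 and 0.17. For Irf4 (SD of group means 0.99) the nearest genes were Gpld1 at 0.22, Eif2ak2, the kinase PKR, at 0.23, and Qser1 at 0.25. All of these share the 12 arrays and their scaling with the Irf gene, and the likeness is a description of these arrays.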

How the data were processed

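The deposited scanner files hold spot intensity, extracted with Agilent Feature Extraction 10.5.1.1 per the file headers, with background subtracted. Log2 values deposited by the authors, made with limma per the submitters' processing notes, served as an alternative and correlated with the values below at 0.981 to 0.986 per array.

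The processed signal was converted to log2 after marked outlier spots were left out, the spots of a probe were averaged, and each array's 75th percentile was subtracted. A probe was kept when well above background on at least 3 of 12 arrays (32215 probes, 21098 with a symbol). The brightest probe stood for each of 14719 genes. A fit of 4 groups over 12 arrays (limma 3.58.1, R 4.3.3, data.table, version 1.17.8) gave the tests and was tested on simulated data. The simulated arrays had independent noise, so that test cannot show how the fit behaves where arrays of a mouse deviate together. The number of arrays limits the precision. P-values treat both arrays of a mouse as independent. Arrays of one mouse deviated together (r = 0.651, 0.612 and 0.753 in Dgcr8-deficient cells, 0.468, 0.722 and 0.429 in the wild type), and the design states the pairing, so the mouse was also used as a block (random for genotype comparisons, correlation 0.757). Slide and scan day were common to the arrays of each mouse, and their part in these correlations was not tested. Controls of different animals that shared a slide correlated at 0.537 (Dgcr8-deficient mouse 4 and wild-type mouse 3) and at 0.238 (mouse 2 of each genotype).

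Accessions were named through RefSeq. The members and gene lists were chosen with earlier results of these data known. Named genes were all Irf genes, up to 4 list members past the threshold by smallest p (otherwise those with the smallest p), the 3 most like profiles of the 2 members that varied most, and Dgcr8. Batf3, Prdm1, genes called only under the mouse block and some that did not pass were named beyond that rule. Markers of other cells were named beside results they moved with. The mean signal column planned for the normexp alternative was absent, so the median signal was used. A further matched probe and some genes of the lists are not reported here.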

Additional observations from a re-analysis of the deposited data

How the results depend on the processing

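Between controls, Irf1, Irf4, Irf5, Irf8 and Irf9 passed in every setting run (24, and 25 where a second probe exists), Irf7 in 22 of 24, Irf3 in 7 and Irf2 in 2 (scan day or slide as block). Leaving out 1 array gave 5 to 7 Irf genes past the threshold there, and 4 to 5 for miR-29b cells against wild-type controls. In the latter the count was 4 with the mouse as replicate block, 8 with scan day as block, and Irf8 passed in 15 of 25 settings. For miR-29b against control, the count was 1 with the mouse as replicate block and 1 with slide as block (Irf8), and 0 to 1 without 1 array. Without the miR-29b array of mouse 2, Irf8 stood at -1.25 (adjusted p = 0.03). The replicate block changed no other Irf call. Over all genes, calls for miR-29b against control were 336 (38.7% of them higher), 239 with normexp (25.1% higher), 3051 with the mouse as a block (50.5% higher), 103 to 306 without 1 array and 0 on the compared arrays alone. Normexp moved the all-gene median between controls from -0.07 to -0.22.

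Differences that changed sign were all short of the threshold. With miR-29b, Irf9 read 0.0014 with quantile normalization and 0.014 with the percentile taken over all spots, an alternative chosen after seeing the data. Without 1 array Irf9 ranged from -0.15 to 0.12, Irf2 from -0.58 to 0.34 and Irf4 from -0.43 to 0.26. With inhibitors, Irf3 read 0.0025 with normexp and ranged from -0.13 to 0.15 without 1 array, Irf2 from -0.11 to 0.55 and Irf5 from -0.16 to 0.18. For the difference between both effects the ranges were -0.82 to 0.10 for Irf2, -0.017 to 0.27 for Irf3 and -0.63 to 0.065 for Irf4. The cause was not tested. The dimmer probes and within-slide values were also added after seeing the data.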
